A study of Mus musculus with 6 samples.

Results

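The constitutive proteasome subunits are the genes for the everyday proteasome, taken here as all genes of the array annotation whose symbol starts with Psma, Psmb, Psmc or Psmd followed by a digit. The inducible subunits Psmb8, Psmb9 and Psmb10 were left out. The rule gave 37 of 18193 genes named by 1 symbol, each read at its brightest probe set (by mean log2 signal over the 6 arrays). Of these, 34 encode the subunits of the proteasome or the chaperones that assemble its base. Psma8 and Psmb11 encode subunits of testis and thymus proteasomes, and Psmc3ip, a meiotic recombination factor, carries a matching symbol but is no subunit. The 37 genes were therefore described both as the rule gave them and by role. At 0 h, 35 of the 37 had a signal at or above the median of all probe sets. The exceptions were Psma8 and Psmb11.

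The proteasome is the large protease that degrades proteins tagged with ubiquitin. Its core particle is a barrel of alpha rings, which gate the entrance, and beta rings, which hold the proteolytic sites. The regulatory particle caps the barrel: its base unfolds substrates with a ring of ATPases, and its lid removes the ubiquitin chain. Fibroblasts, like other cells, make all of these subunits at high levels, and their mRNAs are generally long-lived.

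The study asked which transcripts persist when CNOT3, a subunit of the CCR4-NOT deadenylase complex, is removed from mouse embryonic fibroblasts (MEFs). All cultures were primary MEFs with floxed CNOT3 alleles, infected with a retrovirus and kept in puromycin for 2 days. Cre retrovirus gave CNOT3-depleted MEFs (CNOT3KD), and mock retrovirus gave control MEFs, which the labels call wild type. RNA was taken from each culture before and 6 and 12 h after the addition of actinomycin D (Act. D), an inhibitor of transcription. Each of the 6 conditions had 1 array, so the values below have no replicate check, no error and no p-value, and the number of arrays limits their precision. Signals are MAS5 intensities on a linear scale. The signal left at a time is given in percent of what the same culture had at 0 h. Relative stability divides the CNOT3KD fraction left by that of control on the log2 scale, taking the mean of both Act. D times, so that a positive value means a larger fraction left in CNOT3KD. Because MAS5 sets every array to nearly the same trimmed mean, a transcript that outlasts most others can exceed 100%. A value above 100% is thus relative to the other transcripts and does not by itself show a gain of mRNA.

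The arrays had trimmed means between 494 and 497. A signal was called near background where it lay under the 25th percentile of its array (13.6 to 19.8). Cnot3 itself had a signal of 239.6 in CNOT3KD, against 436 in control, at 0 h. A dimmer Cnot3 probe set had 227 in CNOT3KD and 204 in control at 0 h, so it did not show the depletion, and the sources used here do not say where either lies in the gene. All 11 fibroblast markers, among them Vim, Col1a2 and Fn1, were at or above the array median on every array. Of 7 epithelial markers, 5 were more than 1.5-fold higher in CNOT3KD at 0 h, where 19.5% of all genes were. Of these 5, Cdh1 (8.35) and Krt14 (9.92) were near background in control at 0 h. The summed signal of the 7 lay between 2427 and 2851 in CNOT3KD and between 995 and 1196 in control. The summed signal of 9 measured leukocyte markers lay between 3666 and 5013 in CNOT3KD and between 2482 and 5102 in control. At 0 h alone the sums were 3666 in CNOT3KD and 2482 in control. Of the 9, 3 (Cd68, Tyrobp and Cd14) were more than 1.5-fold higher in CNOT3KD at 0 h, where 19.5% of all genes were. Itgam was the 1 more than 1.5-fold lower, where 15.7% of all genes were, and was near background in both cultures. Ptprc, the general leukocyte marker, lay between 26.2 and 65.1 in CNOT3KD and between 48.2 and 62.7 in control. The summed signal of 5 neural markers lay between 1398 and 1733 in CNOT3KD and between 984 and 1140 in control. At 0 h 2 of them were more than 1.5-fold higher in CNOT3KD and 1, Sox2, more than 1.5-fold lower. Nefl, 1 of the 2 higher, was near background in control at 0 h, with 11.9. Of 5 skeletal muscle markers, 2 were likewise higher and 1, Myh3, lower. Myh3 was near background in both cultures at 0 h, with 4.25 in CNOT3KD and 18.7 in control. The part of other cell types in the proteasome values was not tested.

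Before Act. D, proteasome transcripts were nearly level between the cultures, with a small common shift upward in CNOT3-depleted MEFs. The log2 fold at 0 h (CNOT3KD over control) was above 0 for 32 of the 37 genes, where it was for 9984 of all 18193 genes and for 6446 of the 11062 at or above the median signal. The median over the 37 was 0.15, beside 0.06 over all genes and 0.08 over those 11062. Of the 37, 2 were more than 1.5-fold higher in CNOT3KD, where 19.5% of all genes were. More than 1.5-fold lower was 1 of the 37, against 15.7% of all genes. None of these 3 genes belongs to the 34 subunits and base chaperones, whose log2 folds at their brightest probe sets lay between -0.24 and 0.58.

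**Figure D1:**
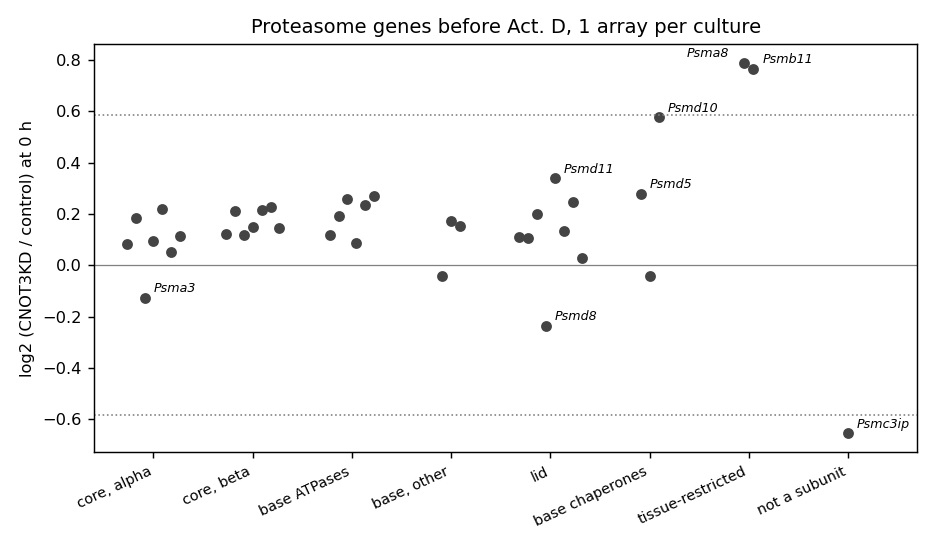
Log2 fold of the signal at 0 h, CNOT3KD over control, for each of the 37 genes, grouped by role on the x axis. Each point is 1 gene read from 1 array per culture, and dotted lines mark 1.5-fold. The 34 subunits and base chaperones lie between -0.24 and 0.58, with Psma8 and Psmb11 above the upper line and Psmc3ip under the lower one.

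The alpha ring had log2 folds at 0 h from -0.13 to 0.22 over its 7 genes. Psma3 was the only gene of the ring lower in CNOT3KD. It had 12017, 14341 and 15080.3 at 0, 6 and 12 h in CNOT3KD, against 13123, 17680.3 and 17956 in control. Both cultures ended above their own start, with 125% left at 12 h in CNOT3KD and 137% in control. Psma1 kept 136% and 137% in CNOT3KD at 6 and 12 h, and 139% and 136% in control. Psma2 (112% and 123% in CNOT3KD, 131% and 139.7% in control), Psma4 (119% and 125% in CNOT3KD, 123% and 113% in control) and Psma6 (123% and 134% in CNOT3KD, 132% and 113% in control) also stayed above 100% throughout. Psma7 had 124% and 131% left in CNOT3KD and 149.8% and 157% in control, so 6 of the 7 alpha genes were above 100% at both times in both cultures.

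Psma5 was the alpha ring gene that departed from this. Its signals were 10021, 11535 and 12114 in CNOT3KD, against 8609.6, 9169.9 and 5482 in control. The cultures ran together to 6 h, with 115% left in CNOT3KD and 107% in control, and parted at 12 h, with 121% left in CNOT3KD and 63.7% in control. A second Psma5 probe set gave 123% left in CNOT3KD at 12 h and 69.2% in control, so both bright probe sets gave the same pattern.

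The beta ring had 7 genes with log2 folds at 0 h from 0.12 to 0.23, all above 0. The proteolytic sites sit on Psmb5 (chymotrypsin-like), Psmb6 (caspase-like) and Psmb7 (trypsin-like). Psmb5 had 7421, 8298 and 8951 at 0, 6 and 12 h in CNOT3KD, against 6391, 8123 and 7656 in control. Psmb6 had 7191, 8715 and 9149 in CNOT3KD, against 6139, 8991 and 8069 in control. These catalytic genes were higher on every Act. D array than on the 0 h array of the same culture, and at 12 h the fractions left in CNOT3KD were 1.01 and 0.968 times those in control.

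Psmb7 behaved otherwise, and alike in both cultures. It had 1759, 1505 and 1456 in CNOT3KD, against 1592, 1386 and 1113 in control. With 85.6% and 82.7% left in CNOT3KD and 87.1% and 69.9% in control, it was the only core gene under 100% at both times in either culture. Among the 34 subunits and base chaperones it had the least signal left at 12 h in CNOT3KD.

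The remaining beta genes are structural. Psmb4, whose product joins the beta rings to each other, had 11903, 13320.0 and 14165 in CNOT3KD, against 10734, 14841 and 12592 in control. Psmb3 had 7244, 8243 and 8991 in CNOT3KD, against 6672, 10279.9 and 10748 in control, and was the core gene with the lowest relative stability, at -0.41 on the log2 scale. In both cases the control signal climbed further above its start than the CNOT3KD signal at 6 h. A second bright probe set of Psmb4 gave the other order. It had 138% and 149% left at 6 and 12 h in CNOT3KD, against 123% and 120% in control. Psmb1 had 130.4% left at 12 h in CNOT3KD and 134% in control, and Psmb2 had 119% in CNOT3KD and 123% in control.

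The ATPases of the base took separate courses in control MEFs and a common course in CNOT3-depleted MEFs. Their 6 genes were all slightly higher in CNOT3KD at 0 h, with log2 folds from 0.09 to 0.27, and all stayed above 100% at both times in CNOT3KD. In control, 3 of them were under 100% at both times: Psmc2, Psmc5 and Psmc6. The ATPases form a hexamer in which each subunit is present once, and they pull the substrate into the core.

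Psmc2 had the widest gap of the ATPases. Its signals were 13045, 15985 and 15643 at 0, 6 and 12 h in CNOT3KD, against 11413, 9702 and 4024 in control. The 3 CNOT3KD values all lie above the 3 control values, and by 12 h CNOT3KD kept 119.9% and control 35.3%. A second probe set of Psmc2 had 110.1% left at 12 h in CNOT3KD and 31.1% in control.

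Psmc5 had 4219, 4831 and 5036 in CNOT3KD, against 3589, 3261 and 2059 in control. Its fraction left at 12 h was 2.08 times as large in CNOT3KD, and all 3 CNOT3KD signals lay above the control signals. Psmc6 had 7408, 8679 and 8460.2 in CNOT3KD, against 6141, 6060.1 and 4259.7 in control. That pattern was not shared by the other probe sets of Psmc6, which had 142% and 137% left at 12 h in CNOT3KD and 138% and 167% in control.

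For the other ATPases the cultures differed less. Psmc1 was above 100% at 6 h in both cultures and had 126% left at 12 h in CNOT3KD and 96.1% in control. Psmc3 had 117% left at 12 h in CNOT3KD and 127% in control. Psmc4 had 10105, 12485 and 13595 in CNOT3KD, against 9510.0, 13072 and 15136 in control. Its dimmer probe set had 127% left at 12 h in CNOT3KD and 109% in control, so the order of the cultures depended on the probe set.

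The base also holds the scaffolds Psmd1 and Psmd2, which dock ubiquitin receptors, and Psmd4, itself a ubiquitin receptor. Psmd1 had 5769.9, 6745 and 6205 in CNOT3KD, against 5944, 8426 and 8144 in control. Psmd2 had 6489, 7299.8 and 7678 in CNOT3KD, against 5755, 8400.3 and 9374 in control. Both scaffolds kept a larger fraction in control, with relative stabilities of -0.31 and -0.42 on the log2 scale. Psmd4 differed from them, having 5455, 7135 and 7348 in CNOT3KD, against 4900.1, 5739 and 4259.6 in control. Its second bright probe set gave 125% left at 12 h in CNOT3KD and 80.4% in control.

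The lid divided into genes that were depleted under Act. D in control MEFs and genes that were not. Psmd6, Psmd7, Psmd12 and Psmd14 were under 100% at both times in control and above 100% at both times in CNOT3KD. Psmd3, Psmd8, Psmd11 and Psmd13 were above 100% at both times in both cultures. At 0 h the 8 lid genes had log2 folds from -0.24 to 0.34, and those of Psmd6, Psmd7, Psmd12 and Psmd14 lay at 0.11, 0.20, 0.13 and 0.03.

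Psmd6, a lid subunit that contacts the ATPase ring, had 9524, 11739 and 12809 at 0, 6 and 12 h in CNOT3KD, against 8839.8, 7187 and 3484 in control. At 12 h 134% was left in CNOT3KD and 39.4% in control, a fraction 3.41 times as large in CNOT3KD. Its second probe set gave 112% in CNOT3KD and 38.0% in control.

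Psmd7, the inactive partner of the lid deubiquitinase, had 4624, 5252 and 5321 in CNOT3KD, against 4023, 3222 and 1466 in control. Psmd14, the deubiquitinase itself, had 8925, 9602 and 9472 in CNOT3KD, against 8749, 8393 and 5068 in control. The products of both genes form one heterodimer, and both had less signal left in control than in CNOT3KD, with 36.4% for Psmd7 and 57.9% for Psmd14 in control at 12 h. A dimmer Psmd7 probe set did not follow: it had 106% left in CNOT3KD and 251% in control at 12 h, from 0 h signals of 153 and 315.

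Psmd12, a scaffold subunit of the lid, had 4738, 5530.1 and 5327 in CNOT3KD, against 4323, 3294 and 1899 in control. It had the least signal left of the lid genes at 6 h in control, 76.2%, against 117% in CNOT3KD. Only 1 probe set reads it, as is the case for Psmd14 and Psmc5.

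The lid genes that persisted in control include Psmd8, with 9004, 10830.2 and 10969 in CNOT3KD, against 10602, 16481 and 18644 in control. Psmd8 is needed for the last step of lid assembly in yeast. Its log2 fold at 0 h, -0.24, was the lowest of the 34 subunits and base chaperones, and its 176% at 12 h in control was the highest. Psmd13 had 2232, 2783 and 2589 in CNOT3KD, against 1879.9, 3546 and 2890.1 in control, and the lowest relative stability of the 34, -0.50 on the log2 scale.

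Psmd3 was close to level, with 2195, 2321 and 2303 in CNOT3KD, against 2036, 2328 and 2073 in control. Psmd11, the subunit that clamps the regulatory particle to the core, had 9884, 10654 and 11063 in CNOT3KD, against 7816, 9730.4 and 8799 in control. At 0 h Psmd11 was the highest of the subunits proper at their brightest probe sets, at 1.26-fold. Its probe sets did not give one pattern: another bright probe set had 113% left at 12 h in CNOT3KD and 48.2% in control, where the brightest had 112% and 113%. A further bright probe set of Psmd11 was 1.60-fold higher in CNOT3KD at 0 h, past the 1.5-fold limit. It had 83.4% left at 12 h in CNOT3KD and 107% in control.

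**Figure D2:**
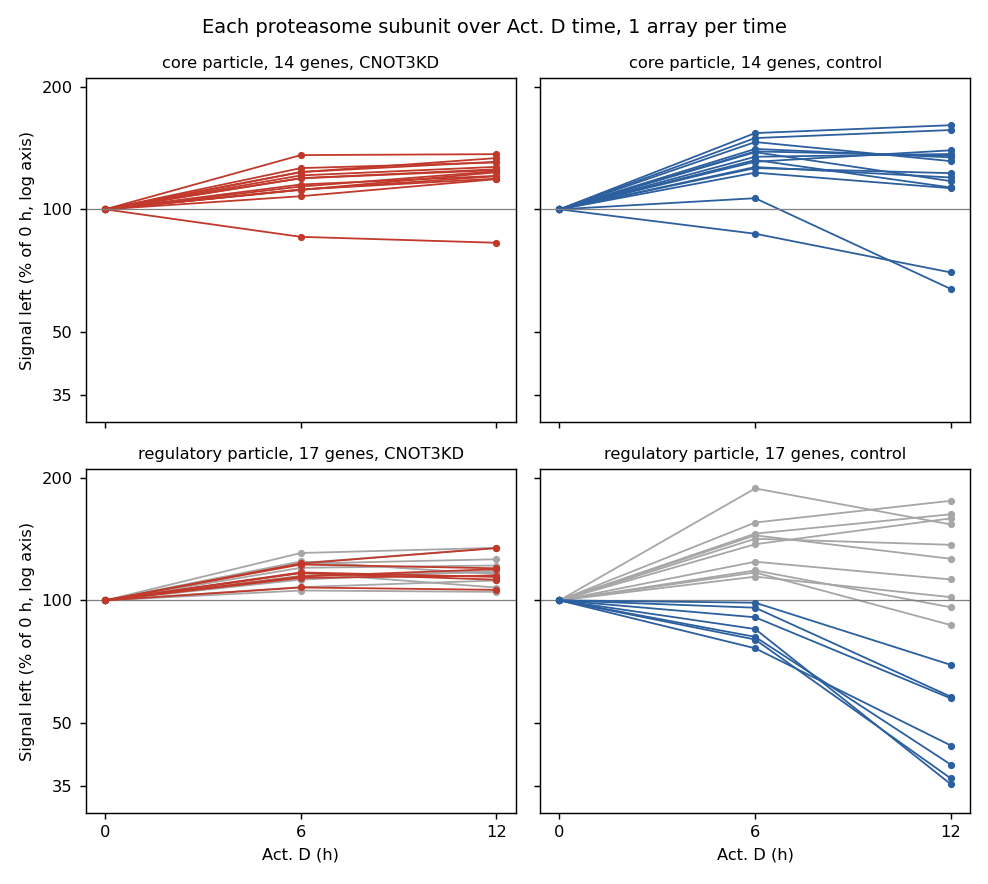
Signal left (percent of 0 h, log axis) at 0, 6 and 12 h of Act. D for the 14 core genes (top) and the 17 regulatory particle genes (bottom), in CNOT3KD (left) and control (right), 1 line per gene and 1 array per time. In the lower panels the coloured lines are the 7 genes under 100% in control and above 100% in CNOT3KD at both times, and grey lines are the other regulatory genes. The 17 regulatory genes end between 105% and 135% in CNOT3KD and between 35.3% and 176% in control.

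The base chaperones Psmd5, Psmd9 and Psmd10 assemble the ATPase ring and leave before the proteasome is finished. Psmd5 showed the largest difference between the cultures among all 37 genes. It had 3186, 2816 and 3141 at 0, 6 and 12 h in CNOT3KD, against 2627, 619 and 293 in control. In CNOT3KD 88.4% was left at 6 h and 98.6% at 12 h, where control kept 23.6% and 11.1%, so the fraction left was 3.75 times as large in CNOT3KD at 6 h and 8.85 times at 12 h. The signal at 0 h was only 1.21-fold higher in CNOT3KD. A single probe set reads Psmd5.

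Psmd10, also known as gankyrin, had 1340.3, 1584 and 1701 in CNOT3KD, against 898, 1058 and 807 in control. It was 1.49-fold higher at 0 h, the value closest to the 1.5-fold limit from below, and all 3 CNOT3KD signals lay above all 3 control signals. With quantile normalization, scaling by the array median or scaling by ribosomal protein signals its log2 fold was 0.65, 0.67 and 0.69, past that limit. Psmd9 had 902, 1161 and 1227 in CNOT3KD, against 927, 1278 and 964 in control, so CNOT3KD was the lower culture at 0 and 6 h and the higher at 12 h. A much dimmer Psmd9 probe set, still at or above the median signal, had 127% left at 12 h in CNOT3KD and 22.4% in control.

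The remaining members of the rule stand outside the common proteasome. Psma8, the alpha subunit of the testis proteasome, had 71.3, 82.1 and 89.7 in CNOT3KD, against 41.2, 60.6 and 103 in control. Psmb11, the thymus counterpart of Psmb5, had 31.4, 22.6 and 28.6 in CNOT3KD, against 18.4, 9.31 and 39.6 in control, and was near background in 2 control arrays. Against the 25th percentile of the control array, Psmb11 was at least 1.58-fold higher at 0 h in CNOT3KD. Psmc3ip had 334, 400.4 and 315 in CNOT3KD, against 526, 560.3 and 426 in control, and its second probe set was also lower at 0 h, with 181 in CNOT3KD and 357 in control. Its log2 fold of -0.66 was -0.57 with scaling by the array median and -0.54 with scaling by ribosomal protein signals, inside the limit. These 3 genes make up all the calls past 1.5-fold at 0 h, and the percentages of Psma8 and Psmb11 rest on dim signals.

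At 12 h the proteasome genes were tightly grouped in CNOT3-depleted MEFs and widely spread in control MEFs. Over the 34 subunits and base chaperones, the signal left lay between 82.7% and 137% in CNOT3KD (median 121%) and between 11.1% and 176% in control (median 113%). The SD over genes of the log2 fraction left was 0.15 in CNOT3KD and 0.85 in control at 12 h, and 0.13 and 0.51 at 6 h. The medians were thus close while the ranges were not. The SD was not computed over other genes. A wider spread in control is therefore not shown to be particular to the proteasome. Of the 37 genes, 0 were at or under 50% at 12 h in CNOT3KD, where 18.9% of all genes and 16.8% of genes at or above the median signal were. In control 5 of the 37 were (Psmd5, Psmc2, Psmd7, Psmd6 and Psmd12), where 29.7% of all genes and 38.0% of genes at or above the median signal were.

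**Figure D3:**
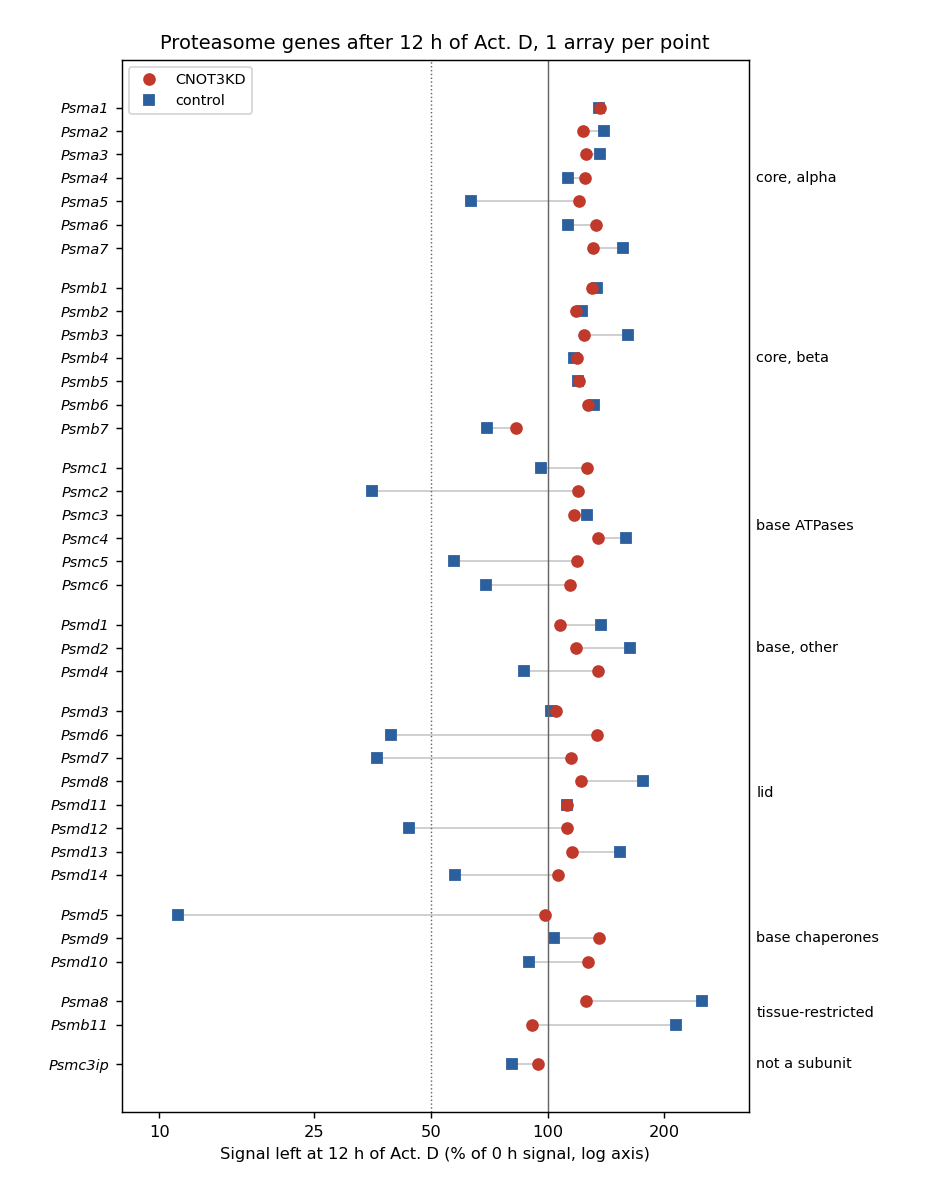
Signal left at 12 h of Act. D (percent of 0 h, log axis) for each of the 37 genes, grouped by role, with CNOT3KD as circles and control as squares, 1 array per point. Circles of the 34 subunits and base chaperones lie between 82.7% and 137%, while squares of Psmd5, Psmc2, Psmd7, Psmd6 and Psmd12 lie left of the dotted line at 50%.

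By the rule of at least 1.5 times the fraction left at both 6 and 12 h, 3 of the 37 genes were more stable in CNOT3KD, namely Psmd5, Psmd6 and Psmd12, where 20.0% of all genes met it. With the cultures exchanged, 0 of the 37 met it, where 13.2% of all genes did. The median relative stability of the 37 was -0.04 on the log2 scale, beside 0.02 over all genes. Counted over the list, proteasome genes therefore met the rule no more often than the array as a whole. At 6 h Psmd6 (1.52 times) and Psmd12 (1.53 times) lay just inside the limit, and Psmc2 (1.44 times) and Psmd7 (1.42 times) just outside it.

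The genes under 100% in control and above 100% in CNOT3KD at both times numbered 7 of the 37: Psmc2, Psmc5, Psmc6, Psmd6, Psmd7, Psmd12 and Psmd14. Among all genes 7.57% had this pattern, and 22 of 76 mitochondrial ribosomal protein genes did. All 7 encode ATPases or lid subunits of the regulatory particle, while 0 of the 14 core genes had it. The 100% line moves with the scaling of the arrays: with each array divided by its median, 1 gene (Psmd5) had the pattern, beside 10.7% of all genes. With quantile normalization 10 genes had it, beside 7.62% of all genes. Those 10 include the core genes Psma3, Psma4, Psma5 and Psma6 but, of the 7 above, only Psmc2, Psmc5 and Psmd6.

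**Figure D4:**
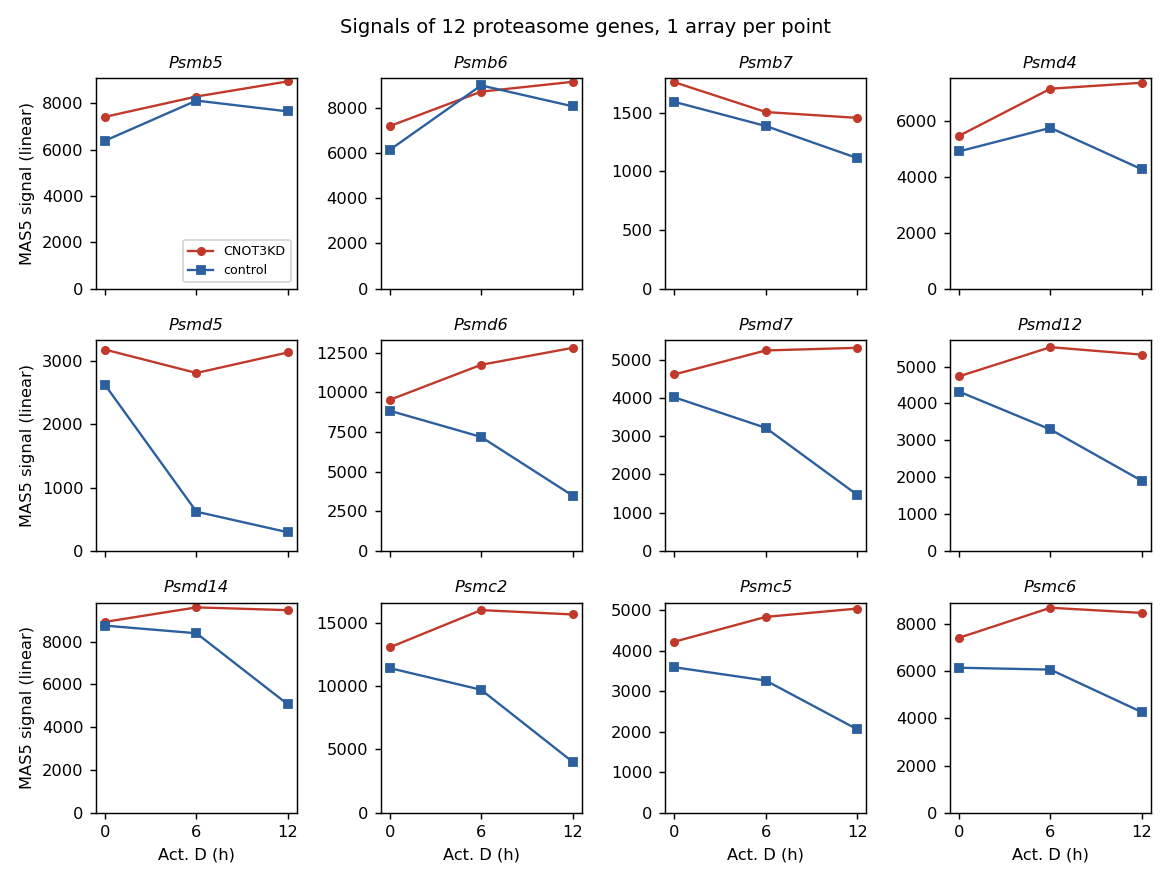
MAS5 signals (linear axes starting at 0) at 0, 6 and 12 h of Act. D for 12 proteasome genes, with CNOT3KD as circles and control as squares, 1 array per point. Psmb5, Psmb6 and Psmb7 follow similar courses in both cultures, whereas for Psmd5, Psmd6, Psmd7, Psmd12, Psmd14, Psmc2, Psmc5 and Psmc6 the control line ends below the CNOT3KD line, at 293 for Psmd5 at 12 h.

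A comparison within each array does not depend on a scale factor. The geometric mean signal of the 17 regulatory particle genes was divided by that of the 14 core genes, a measure chosen after the values had been seen. At 0, 6 and 12 h the ratio was 0.798, 0.809 and 0.773 in CNOT3KD, against 0.793, 0.693 and 0.565 in control. It was at 96.8% of its start at 12 h in CNOT3KD and at 71.2% in control. The ratio at 0 h was almost the same in both cultures. With each gene at the median of its probe sets in place of the brightest, the ratio was at 101% of its start in CNOT3KD and 87.5% in control.

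Of the 76 probe sets that read the 37 genes, 60 were at or above the median signal. For 18 genes more than 1 probe set was that bright, and for 13 of them all bright probe sets gave relative stability of the same sign. The signs were mixed for Psmb4, Psmc4, Psmc6, Psmd7 and Psmd11. The bright probe sets of Psmc6, Psmd7, Psmd9 and Psmd11 fell on both sides of 100% at 12 h in control.

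Partner genes of the proteasome, taken from lists by role, were measured for assembly factors, caps, receptors and regulators. Of 6 measured assembly factors, 4 met the rule for higher stability in CNOT3KD, where 20.0% of all genes did. Psmg2, which pairs with Psmg1 to build the alpha ring, had 2079, 2531 and 2379.8 in CNOT3KD, against 1882, 968 and 262 in control. Psmg1 had 124% left at 12 h in CNOT3KD and 31.2% in control, and Psmg3 had 53.2% in CNOT3KD and 12.5% in control. Akirin2, which carries assembled proteasomes into the nucleus, had 36.2% left at 12 h in CNOT3KD and 4.17% in control. Psmg4 and Pomp, the chaperone of the beta ring, did not meet the rule, and Pomp had 114% left at 12 h in CNOT3KD and 199.7% in control. Of the 7 genes of the alpha ring, which Psmg1 and Psmg2 help to build, 0 met the rule, beside the same 20.0% of all genes.

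Among 4 measured caps and inhibitors, 0 met the stability rule, where 20.0% of all genes did. Psme4, a cap of the nuclear proteasome, had 88.6% left at 12 h in CNOT3KD and 32.1% in control. Psme1, a subunit of the interferon-inducible cap, had 3024 in CNOT3KD and 2012 in control at 0 h, a log2 fold of 0.59 and just past the 1.5-fold limit. Of 10 measured receptors and associated enzymes, 2 met the rule, a share no larger than the 20.0% over all genes. Txnl1, a thioredoxin bound to the regulatory particle, had 11450.3, 11995 and 11323 in CNOT3KD, against 9794, 4012 and 1132 in control. Uchl5, a deubiquitinase of the regulatory particle, had 131% left at 12 h in CNOT3KD and 46.9% in control. Sem1, the small lid subunit outside the symbol rule, had 121% left in CNOT3KD and 192% in control. Uba6, an activating enzyme for ubiquitin and the only gene measured of its list, had 94.2% left at 12 h in CNOT3KD and 44.4% in control, and was under the limit at 6 h.

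Proteasome genes are induced together by Nfe2l1, a factor that is processed by Ngly1, and partly by the related Nfe2l2. Of 10 measured regulators, 4 were more stable in CNOT3KD by the rule: Nfe2l2, Ngly1, Mafk (a dimer partner of both factors) and Zfand5 (a zinc finger protein that binds the proteasome). Over all genes 20.0% were. Nfe2l2 had 2877, 1821 and 1585 in CNOT3KD, against 3114, 621 and 225 in control. Nfe2l1 had 1769, 1991 and 2065 in CNOT3KD, against 1579.7, 2439 and 2626 in control, so the related factors differed in which culture kept the larger fraction. At 0 h 0 of the 10 regulators was past 1.5-fold in either direction, where 19.5% of all genes were higher and 15.7% lower.

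Nfe2l1 and Nfe2l2 bind the antioxidant response element, for which the letters TGACNNNGC were searched on either strand, overlaps allowed, in RefSeq promoter windows of 300 bases (250 before and 50 after the start, build GRCm38.p6). Windows were found for 30 of the 37 genes, and 5 of them (16.7%) held the letters, beside 14.0% of 27025 genes. The 5 matches are shown in gene orientation with the matched letters in capitals, reading as their reverse complement for Psmc6 and Psmd12, so that the catalytic genes can be set beside an ATPase and a lid gene that control MEFs depleted.
Psmb5, chr14:54618024-54618052, minus strand: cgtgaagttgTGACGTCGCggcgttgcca
Psmb6, chr11:70525338-70525366, plus strand: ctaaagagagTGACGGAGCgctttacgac
Psmd9, chr5:123228149-123228177, plus strand: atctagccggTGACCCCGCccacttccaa
Psmc6, chr14:45329587-45329615, plus strand: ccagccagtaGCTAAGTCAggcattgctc
Psmd12, chr11:107479278-107479299, plus strand: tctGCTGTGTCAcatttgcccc
The first capital lies 47 bases before the start for Psmb5, 9 for Psmb6, 31 for Psmd9, 227 for Psmc6 and 247 for Psmd12. The 5 genes include both courses at their brightest probe sets: Psmb5, Psmb6 and Psmd9 ended above 100% at 12 h in both cultures, and Psmc6 and Psmd12 ended above it only in CNOT3KD. Other probe sets of Psmd9 and Psmc6 gave other courses in control, as noted above. A match of letters is a description of the window and not a binding site.

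The inducible subunits left out by the rule differed from their constitutive counterparts at 0 h. Psmb8 had 258 in CNOT3KD and 44.3 in control, Psmb9 had 87.5 in CNOT3KD and 14.8 in control, and Psmb10 had 1271 in CNOT3KD and 601 in control, whereas Psmb5, Psmb6 and Psmb7 were within 1.17-fold. The control signal of Psmb9 was near background, as defined above.

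In control MEFs the proteasome genes lay between the lists of other large complexes. The 43 cytosolic ribosomal protein genes had a median of 113% left at 12 h in CNOT3KD and 180.0% in control, with a median relative stability of -0.55 on the log2 scale. The 81 oxidative phosphorylation genes had 131% in CNOT3KD and 188% in control, with -0.47. The 76 mitochondrial ribosomal protein genes had 113% in CNOT3KD and 61.8% in control, with 0.54, where the median over all genes in control was 95.9%. In CNOT3KD the 14 core genes (125%) and the 17 regulatory genes (117%) lay beside these lists, and in control the core (127%) and the regulatory particle (96.1%) lay between them. These are medians over genes on single arrays, and the differences between lists were not tested.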

How the data were processed

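Total RNA was hybridized to GeneChip mouse arrays, 1 for each of 6 conditions. The authors deposited linear MAS5 intensities, 1 value per probe set, whose trimmed means (2% trimmed at each end) were nearly equal across arrays. The MAS5 version and the scaling target were not given in the sources used here. Such scaling hides any change that all transcripts share.

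Of 45037 probe sets, 34945 have 1 gene symbol in the platform annotation. Probe sets with several symbols (932) or none (9160) were left out. All 37 member symbols match the reference list of mouse genes. A floor of 1 was set, and the deposited scale was kept.

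The members and lists were chosen with earlier results of these data known. Sizes of 1.5-fold and 50% left defined calls, counted over all 18193 genes for the background. Genes named with all signals are the catalytic subunits, Psmd4, Psmd5, Psmd9, Psmd10, Psmd14, Psma8 and Psmb11, the 5 extremes of each measure, and the brightest and dimmest gene of each subcomplex. Others were chosen after their values were seen. No test was run. Alternatives were other scalings, a floor of 16, the median over probe sets, each time alone, a size of 2.0 and reduced gene sets. Counting steps were tested on simulated data. Python 3.11.15, pandas 2.3.3, numpy 2.4.6 and matplotlib 3.10.9 were used.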

Additional observations from a re-analysis of the deposited data

Results flagged for a closer look

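In 7 genes of the regulatory particle every Act. D array of CNOT3KD lay above the 0 h signal and every Act. D array of control lay under it. Over all genes 7.57% did so. The set depends on the scaling. With each array divided by its median, Psmd5 alone had the pattern, and it is not among the 7. With quantile normalization only Psmc2, Psmc5 and Psmd6 of the 7 kept it. At 12 h the log2 ratio of the fractions left, CNOT3KD over control, was 1.77 for Psmd6, 1.77 for Psmc2, 1.66 for Psmd7, 1.36 for Psmd12, 1.06 for Psmc5, 0.87 for Psmd14 and 0.72 for Psmc6. The difference between the cultures was not tested, since each condition had 1 array. The control course was shared by a second bright probe set for Psmd6 and Psmc2 and not for Psmc6 or Psmd7, while Psmd12, Psmc5 and Psmd14 have a single probe set.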

How the results depend on the processing

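No paired analysis was possible because each condition had 1 array. The median relative stability of the 37 genes, -0.04 on the log2 scale, had the opposite sign with quantile normalization (0.16), scaling by the array median (0.016), scaling by ribosomal protein signals (0.44) and 12 h alone (0.021), so no direction is given for the list. Ribosomal scaling moved the median of all genes by 0.11 in log2 fold and 0.47 in relative stability. It divides each array by 1 factor and so shifts all genes alike, apart from values at the floor. The distance of the members from that median, 0.08 and -0.06, was therefore bound to stay and is no check. Under that scaling the control median left at 12 h was 69.4%, and 11 genes were at or under 50%, beside 44.0% of all genes. More stable in CNOT3KD were 7 genes with ribosomal scaling (33.2% of all genes), 1 with scaling by the array median (Psmd5; 19.8%), 1 at a size of 2.0 (12.4%) and 10 at 12 h alone (33.0%). Psmd5 was among them under all 3 scalings. The median over probe sets is no further check for Psmd5, since a single probe set reads it. More stable in control were 1 gene at 6 h alone (19.4% of all genes), 2 at 12 h alone (30.6%) and 1 with the median over probe sets (14.3%). More than 1.5-fold higher at 0 h were 0 genes at a size of 2.0 (10.4% of all genes) or without Psma8 and Psmb11 (19.5%). More than 1.5-fold lower were 0 with scaling by the array median (13.8% of all genes) or ribosomal protein signals (13.3%). The count was also 0 at a size of 2.0 (8.79%) or without Psmc3ip (15.7%). With the median over probe sets it was 4, beside 17.9% of all genes. Among these 4 were Psmd7 (-1.04 on the log2 scale) and Psmd9 (-0.77), which had 0.20 and -0.04 at their brightest probe sets. Opposite sides of 100% were taken by 1 gene with the array median (10.7% of all genes) and 15 with ribosomal scaling (12.1%). The setting without Psmc3ip and the alternatives for opposite sides and for the particle ratio were chosen after the data were seen. Of 92 alternative values, 70 kept their sign and stayed within 1.5 times of the value reported, taking medians on the log2 scale back to ratios first. Some of the 70 had little or no room to move. The particle ratio cannot change when each array is divided by 1 factor. A floor of 16 left every member result as it was, since few member signals lie under it. The counts of 0 at or under 50% in CNOT3KD were the same under every setting run. Single arrays limit all of these values, and each 12 h value of control rests on the same array.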
